A study of Mus musculus with 12 samples.

Results

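Cholesterol and fatty acid synthesis was followed through 32 mouse genes of the 20551 in the count table. They were chosen by name for their place in the pathway, with earlier results of these data known. All 32 were found and all 32 passed the filter on low counts. By role they were 3 genes of acetyl-CoA supply, 4 of the mevalonate arm, 3 of isoprenoid diphosphate synthesis, 3 of the squalene steps, 9 of the path from lanosterol to cholesterol, 4 of the control of the pathway and of sterol transport, and 6 of fatty acid synthesis and desaturation.

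Cells build cholesterol and fatty acids from acetyl-CoA. For cholesterol, acetyl-CoA is turned into HMG-CoA and mevalonate, then into isoprenoid diphosphates, squalene, lanosterol and, over many steps, cholesterol. Most of these enzymes are transcribed under sterol regulatory element binding proteins (SREBPs), which are held in the endoplasmic reticulum by INSIG proteins while sterols are plentiful and are cut free when sterols run low. Macrophages of the airways take up and degrade surfactant, so they handle much lipid from outside, and macrophages are known to reset sterol synthesis, uptake and export when Toll-like receptors are engaged.

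The cells were airway macrophages (AMs) of C57BL/6 mice, sequenced in a design that crossed genotype with treatment, to compare resting AMs and their answer to bacterial lipopolysaccharide (LPS) between healthy and mucus-obstructed airways. Scnn1b-Tg mice carry a transgene for the beta subunit of the epithelial sodium channel under the promoter of the club cell secretory protein, which drives expression in club cells of the airway epithelium, and wild-type (WT) littermates served as controls. Lavages of 3 to 4 animals were pooled, and 6 pools (WT 16, WT 17, WT 18, Tg 17, Tg 18 and Tg 19) were each split into cells kept in medium and cells given 100 ng/ml LPS of Pseudomonas aeruginosa for 12 h. This gave 4 groups of 3 libraries: WT and Scnn1b-Tg cells, each in medium or with LPS. Animals were 6 weeks old per the study's methods, and the accounts of isolation differ, as the labels describe lavage cells that adhered to plastic and the methods describe AMs sorted by flow cytometry. Pools are separate animals, whereas the medium and LPS libraries of a pool share theirs.

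Libraries held 48.2 to 60.9 M estimated counts. Levels are given as counts per M (CPM) with TMM scaling, and levels of different genes are compared only after division by exon length (CPM per kb). All 12 AM markers were present, with a summed level of 11262 to 20325 CPM. Among markers of other cells, the 7 neutrophil genes summed to at most 37.7 CPM, the 8 alveolar type 2 genes to 79.4 to 127 CPM and the 7 airway epithelial genes to 22.3 to 89.0 CPM. In the alveolar type 2 sum Abca3 alone had group means of 57.8 to 65.7 CPM. Scnn1b itself was at group means of 0.251 to 0.385 CPM in all 4 groups. In these bulk samples fewer cells of a type and less RNA per cell cannot be told apart. By the labels, batch 1 holds pools WT 16, WT 17 and Tg 17, and the other 3 pools form batch 2. The study's methods name the date of library preparation as a covariate, and the batch of the labels was taken here to stand for it. Changes called below had an adjusted p under 0.05 in a fit across all 13729 genes that passed the filter, with the batch as a term.

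In resting WT AMs the levels per length spanned a wide range. Acly, which makes cytosolic acetyl-CoA from citrate, stood at 62.2 ± 12.7 CPM per kb, Fdps, which makes farnesyl diphosphate, at 52.5 ± 5.46, and Mvd, which closes the mevalonate arm, at 45.1 ± 5.60 (mean ± SD, n = 3 each). These 3 neighbours overlapped in their values, and Mvd did not overlap the next gene, Cyp51, at 35.4 ± 4.44 CPM per kb. At the lower end stood Tm7sf2, a sterol reductase, at 0.529 ± 0.0458, Elovl6, a fatty acid elongase, at 0.269 ± 0.0324, and Fads2, a fatty acid desaturase, at 0.259 ± 0.0132 CPM per kb. The transcription factor gene Srebf2 was at 26.8 ± 1.64 and Srebf1 at 11.7 ± 1.49 CPM per kb. The order depends on the length used: divided by the longest transcript instead of all exon bases, Fdps was at 74.8 and Acly at 74.1 CPM per kb. In Scnn1b-Tg LPS the same gene, Acly, led with 57.4 ± 19.5 CPM per kb, and Fads2 closed the order with 0.0503 ± 0.0467.

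LPS was followed by lower transcript levels of a large share of the pathway in both genotypes, and by a called rise of no member. In WT AMs 14 of the 32 members fell and 0 rose, where 16.2% of all genes tested fell and 15.5% rose. In Scnn1b-Tg AMs 13 fell and 0 rose, where 18.7% of all genes tested fell and 19.3% rose. The median log2 fold change over the 32 members was -0.41 in WT and -0.39 in Scnn1b-Tg, against 0.00 and -0.02 over all genes tested. Of the called members, 12 were the same in both genotypes, which is 85.7% of the WT calls and 92.3% of the Scnn1b-Tg calls, and Sc5d and Fdps were called in WT alone and Sqle in Scnn1b-Tg alone. None of these 3 was called in the test of the difference between genotypes, described further below. The other 17 members were called in neither genotype. Over all 32 members, 19 were lower with LPS in 6 of 6 pools, 2 (Ggps1 and Srebf1) were higher in 6 of 6, and the rest went different ways in different pools. The share of all genes tested that went the same way in 6 of 6 pools was not counted.

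**Figure D1:**
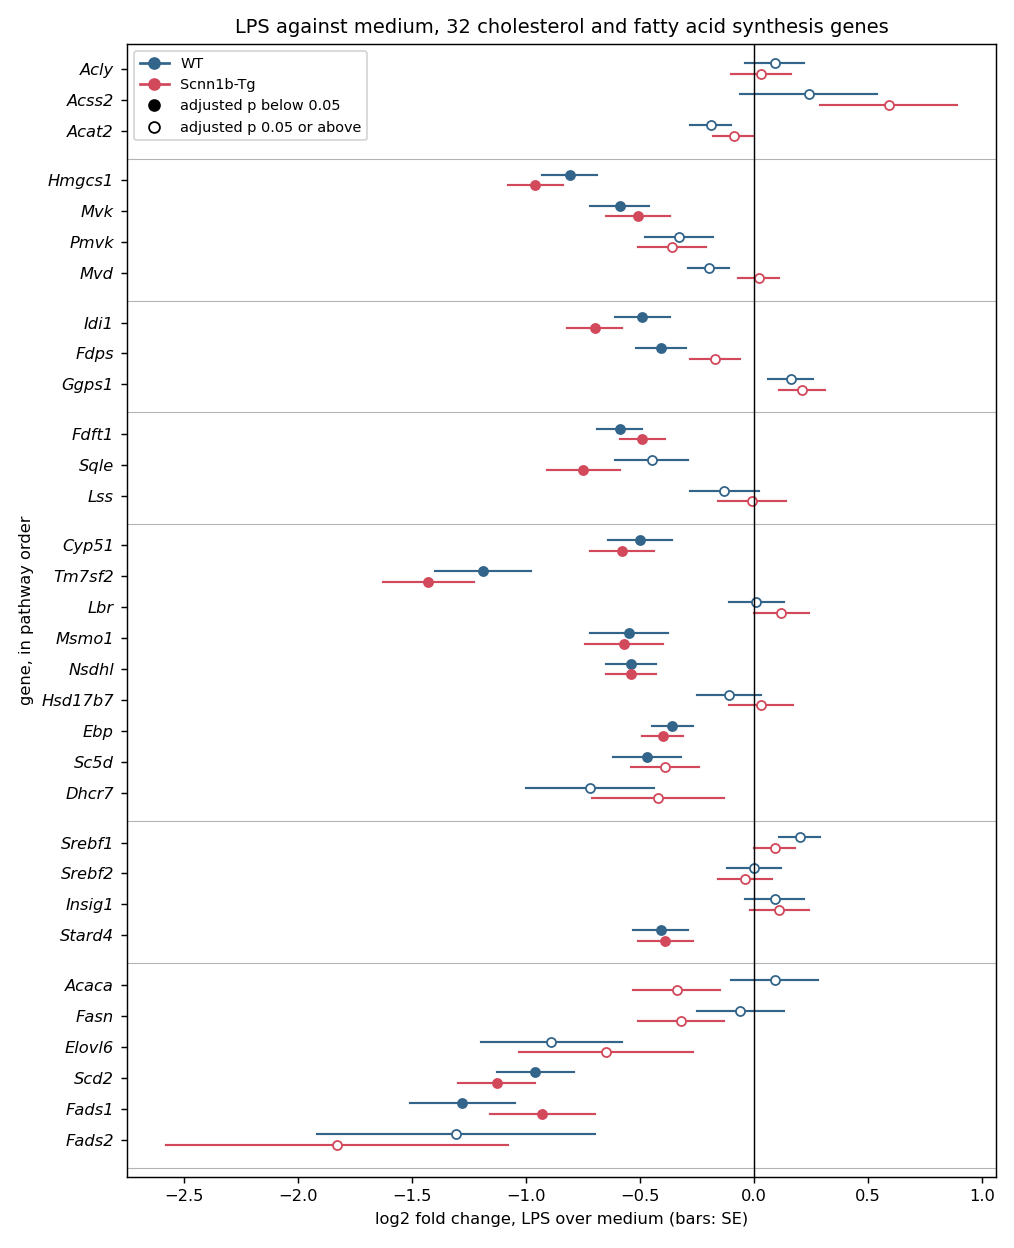
Log2 fold change of LPS over medium (x axis) for the 32 genes in pathway order (y axis), from the edgeR fit, in WT (blue) and Scnn1b-Tg (red), with bars of 1 SE and filled points where the adjusted p was under 0.05. All filled points lie left of 0, from -1.28 (Fads1) to -0.36 (Ebp) in WT and from -1.43 (Tm7sf2) to -0.39 (Stard4) in Scnn1b-Tg.

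The role lists from the mevalonate arm to cholesterol together hold 19 members. They include Ggps1, whose product does not lead to sterols, and they lack some enzymes of the path. Of these 19 members, 11 fell in WT and 10 in Scnn1b-Tg, with median log2 fold changes of -0.47 and -0.42. Their summed level was 1532, 1550 and 1361 CPM in the medium libraries of WT 16, 17 and 18 and 1258, 1203 and 811 CPM in their LPS libraries. In Scnn1b-Tg 17, 18 and 19 it was 1447, 1104 and 1223 CPM in medium and 1074, 757 and 946 CPM in LPS. The sum was lower with LPS in each of the 6 pools, and the medium and LPS libraries did not overlap in either genotype, though Tg 17 with LPS and Tg 18 in medium, of different batches, lay close. The call count in WT leaned on pool WT 18: without its medium library 7 members were called, where 11.7% of all genes tested fell, and without its LPS library 8, where 11.6% fell. Without the batch term the counts were 6 in WT and 7 in Scnn1b-Tg, all lower, where 12.6% and 15.6% of all genes tested fell. Fitted with the pool as a block, LPS against medium gave 18 called members in WT, 17 of them lower, and 17 in Scnn1b-Tg, 16 of them lower. That fit also called more of all genes tested, with 19.3% lower in WT and 22.1% in Scnn1b-Tg.

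**Figure D2:**
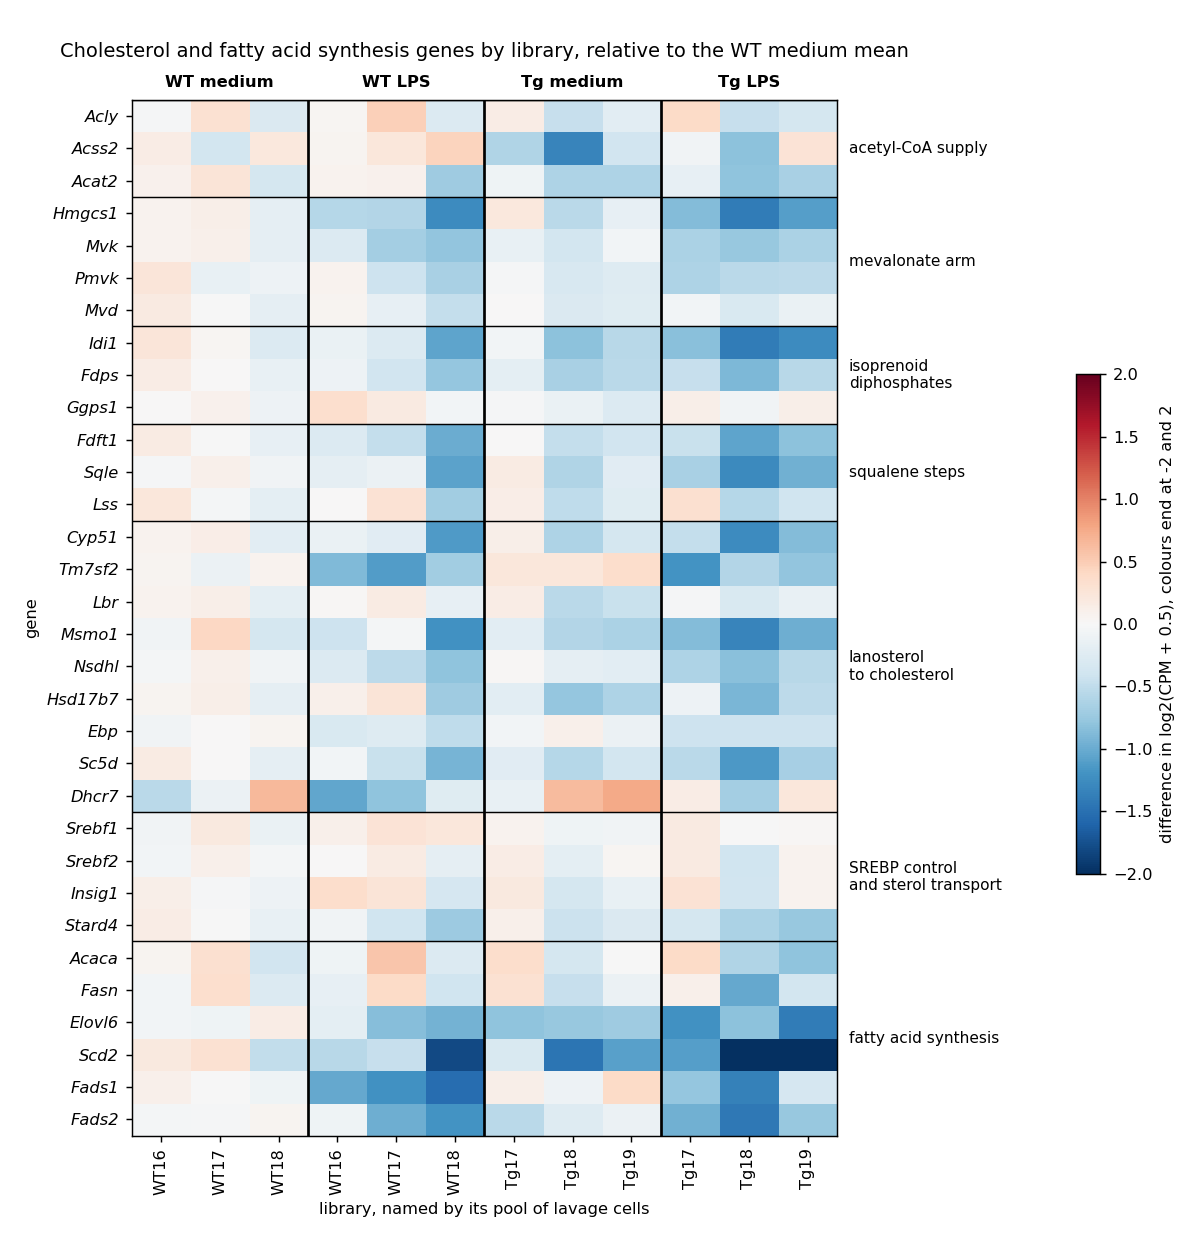
Difference of log2(CPM + 0.5) from the mean of the 3 WT medium libraries, for each gene (rows, grouped by role) in each of the 12 libraries (columns, by group and pool). Blue marks lower and red higher levels, and colours end at -2 and 2. Each LPS column is bluer than the medium column of the same pool for Hmgcs1, Idi1, Sqle, Scd2 and Fads1, the rows of Srebf1 and Srebf2 stay pale, and batch 2 columns (WT18, Tg18, Tg19) are bluer than batch 1 columns in many rows.

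Because the members share known regulators, the stretch around their transcription start sites was read from RefSeq (GRCm38.p6), which held 31 windows of 250 bases before to 50 after a start for 26 of the 32 members. The 6 without a window here were Fdps, Fdft1, Sqle, Stard4, Scd2 and Fads1, all of them among the 15 members called with LPS, so the shares below leave them out. Letters TCACNCCAC, a consensus of the sterol regulatory element to which SREBPs bind, were searched on both strands and stood in 1 of the 31 windows (3.23%), that of Hmgcs1, against 1.24% of the 32851 windows of all genes. CCAAT, the box bound by the factor NF-Y, which works beside SREBPs at many sterol genes, stood on either strand in 23 of the 31 windows (74.2%), against 37.4% of all windows. Among the other sterol and fatty acid genes described further below, 17 of 37 windows held CCAAT (45.9%) and 0 held the longer motif. Windows of 4 genes are shown, those of Hmgcs1, Mvk and Nsdhl, which fell with LPS in both genotypes and hold the longer motif or several CCAAT boxes, and that of Insig1, which was not called. Each runs 5′ to 3′ in the direction of its gene, and capitals mark the longer motif or CCAAT, read as ATTGG where it lies on the other strand.
Hmgcs1, chr13:119690101-119690400, plus strand: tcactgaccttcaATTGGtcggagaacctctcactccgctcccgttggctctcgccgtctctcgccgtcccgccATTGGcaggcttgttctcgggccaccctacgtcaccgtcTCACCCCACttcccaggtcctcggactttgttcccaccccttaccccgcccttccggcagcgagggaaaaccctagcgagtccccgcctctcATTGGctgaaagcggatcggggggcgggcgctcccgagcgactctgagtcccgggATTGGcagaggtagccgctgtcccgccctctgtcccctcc
Mvk, chr5:114444019-114444318, plus strand: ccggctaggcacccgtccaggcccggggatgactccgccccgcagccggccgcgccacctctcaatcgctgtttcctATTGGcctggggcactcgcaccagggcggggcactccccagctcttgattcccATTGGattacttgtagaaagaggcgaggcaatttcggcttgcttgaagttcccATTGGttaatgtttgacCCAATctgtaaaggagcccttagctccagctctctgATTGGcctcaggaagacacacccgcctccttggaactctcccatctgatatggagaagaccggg
Nsdhl, chrX:72918271-72918570, plus strand: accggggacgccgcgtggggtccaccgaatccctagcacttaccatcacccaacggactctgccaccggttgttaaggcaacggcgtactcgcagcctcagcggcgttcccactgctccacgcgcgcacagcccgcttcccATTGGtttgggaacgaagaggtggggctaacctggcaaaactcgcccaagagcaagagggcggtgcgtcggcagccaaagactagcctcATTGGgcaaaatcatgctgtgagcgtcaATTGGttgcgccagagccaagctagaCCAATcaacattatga
Insig1, chr5:28071162-28071461, plus strand: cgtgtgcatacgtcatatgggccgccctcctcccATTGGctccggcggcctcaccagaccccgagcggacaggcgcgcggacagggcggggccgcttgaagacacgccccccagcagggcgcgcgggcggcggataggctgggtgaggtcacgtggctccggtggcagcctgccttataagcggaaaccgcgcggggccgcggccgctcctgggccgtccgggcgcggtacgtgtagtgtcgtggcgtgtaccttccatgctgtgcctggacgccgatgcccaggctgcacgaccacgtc
In the Hmgcs1 window the longer motif reads TCACCCCAC, on the plus strand, and begins 137 bases before the start, between CCAAT boxes. Mvk holds 5 CCAAT boxes, Nsdhl 4 and Insig1 1. These 4 windows do not stand for all members. Hsd17b7 and Ggps1, not called with LPS, also hold several CCAAT boxes, and Cyp51 and Tm7sf2, called in both genotypes, hold 1 each. A match describes letters only; binding was not measured here.

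The step into the mevalonate arm fell clearly in both genotypes. Hmgcs1 (ENSMUSG00000093930), whose product condenses acetyl-CoA units into HMG-CoA, measured 165, 171 and 139 CPM in the medium libraries of WT 16, 17 and 18 and 106, 105 and 65.5 CPM in their LPS libraries. In Scnn1b-Tg 17, 18 and 19 it measured 182, 108 and 140 CPM in medium and 86.1, 59.7 and 73.2 CPM in LPS. Medium and LPS libraries did not overlap in either genotype, and in each treatment pools WT 18 and Tg 18, both of batch 2, were the lowest of their group. LPS cells held 57.0% of the medium level in WT (log2 fold change -0.81 ± 0.12 SE, edgeR adjusted p = 0.000399) and 51.3% in Scnn1b-Tg (-0.96 ± 0.12, adjusted p = 8.51e-05). The antisense gene Gm48342 shares 12.1% of the exon bases of Hmgcs1, and counting did not use strand.

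Mvk, the kinase that follows mevalonate, measured 18.1, 18.5 and 15 CPM in WT medium and 14.1, 10.5 and 9.71 CPM in WT LPS for pools 16, 17 and 18. In Scnn1b-Tg pools 17, 18 and 19 its levels were 15.4, 13.2 and 16.5 CPM in medium and 10.9, 9.95 and 10.9 CPM in LPS. Again no LPS library reached a medium library of its genotype. The log2 fold change was -0.59 ± 0.13 in WT (edgeR adjusted p = 0.00611) and -0.51 ± 0.14 in Scnn1b-Tg (adjusted p = 0.0121), and the latter call was lost without the medium library of Tg 19 (adjusted p = 0.0591) or the LPS library of Tg 17 (0.0581). The next kinase, Pmvk, at log2 fold changes of -0.33 ± 0.15 and -0.36 ± 0.15, was not called (adjusted p = 0.138 and 0.0908) but was with the pool as a block (adjusted p = 0.0320 and 0.0188). Mvd, the decarboxylase that ends the arm, was at -0.20 ± 0.09 in WT (adjusted p = 0.128, and 0.0404 with the pool as a block) and at 0.02 ± 0.09 in Scnn1b-Tg (adjusted p = 0.903). Thus 2 of the 4 genes of this arm fell in each genotype.

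Among the isoprenoid diphosphate genes, Idi1, the isomerase that makes the reactive starter unit, fell in both genotypes. It measured 67.6, 58.5 and 46.9 CPM in WT medium (pools 16, 17 and 18) and 52.0, 46.9 and 27.1 CPM in WT LPS. In Scnn1b-Tg (pools 17, 18 and 19) it measured 54.7, 32 and 38.5 CPM in medium and 31.7, 21.3 and 23.6 CPM in LPS. The Scnn1b-Tg values separated by treatment, whereas in WT the lowest medium library (WT 18) overlapped the LPS values of the batch 1 pools. Fold changes on the log2 scale were -0.49 ± 0.12 in WT (edgeR adjusted p = 0.00752, and 0.0600 without the medium library of WT 18) and -0.70 ± 0.12 in Scnn1b-Tg (adjusted p = 0.000741). Fdps, the farnesyl diphosphate synthase, fell in WT by 0.41 ± 0.11 on the log2 scale (adjusted p = 0.0155) and was at -0.17 ± 0.11 in Scnn1b-Tg (adjusted p = 0.258). Its WT call was lost without either library of WT 18 (adjusted p = 0.0985 for medium and 0.0887 for LPS) and without the LPS library of WT 17 (0.0540), and 26.7% of its exon bases are shared with Gm43738 on the same strand. Ggps1, whose geranylgeranyl diphosphate feeds protein prenylation and not sterols, was higher in 6 of 6 pools at log2 fold changes of 0.16 ± 0.10 and 0.21 ± 0.10, without being called (adjusted p = 0.241 and 0.112).

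Of the squalene steps, 1 of 3 genes fell in WT and 2 of 3 in Scnn1b-Tg. Sqle, the squalene epoxidase and a known control point of the pathway, measured 118, 128 and 114 CPM in WT medium (pools 16, 17 and 18) and 106, 111 and 56.9 CPM in WT LPS. In Scnn1b-Tg it measured 135, 78.9 and 102 CPM in medium and 75.9, 49.5 and 61 CPM in LPS (pools 17, 18 and 19). In WT the medium and LPS libraries did not overlap, but the difference of log2(CPM + 0.5) was -0.18 within batch 1 (pools 16 and 17), and pool 18 of batch 2 had the widest gap. The log2 fold change was -0.75 ± 0.16 in Scnn1b-Tg (edgeR adjusted p = 0.00333) and -0.45 ± 0.16 in WT (adjusted p = 0.0508), and the WT value passed with the pool as a block (adjusted p = 0.0457). Fdft1, the squalene synthase, fell by 0.59 ± 0.10 in WT (adjusted p = 0.00133) and by 0.49 ± 0.10 in Scnn1b-Tg (adjusted p = 0.00316) on the log2 scale. It shares 18.3% of its exon bases with Ctsb on the other strand, which stood at group means of 7561 to 8568 CPM, while single libraries held 46.0 to 108 CPM of Fdft1, and the part of this overlap was not tested. Lss, which closes squalene epoxide into lanosterol, was at -0.13 ± 0.15 and -0.01 ± 0.15 (adjusted p = 0.538 and 0.970).

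From lanosterol to cholesterol 6 of 9 enzymes fell in WT and 5 of 9 in Scnn1b-Tg. Tm7sf2, a sterol C14 reductase, had the largest mean fall of all 32 members that were called, at a low level. It measured 2.42, 2.10 and 2.47 CPM in WT medium and 1.04, 0.798 and 1.25 CPM in WT LPS (pools 16, 17 and 18), and 2.81, 2.80 and 3.10 CPM in Scnn1b-Tg medium and 0.740, 1.39 and 1.14 CPM in Scnn1b-Tg LPS (pools 17, 18 and 19). The treatments separated widely in both genotypes, and no batch pattern was called for this gene (adjusted p = 0.220 for the batch term). LPS cells held 43.7% of the medium level in WT (log2 fold change -1.19 ± 0.21, edgeR adjusted p = 0.00118) and 37.1% in Scnn1b-Tg (-1.43 ± 0.20, adjusted p = 0.000189). The neighbour Vps51, which overlaps 12.1% of its exon bases on the same strand, stood at 75.6 ± 5.58 CPM in WT medium and 69.1 ± 5.70 CPM in WT LPS. Lbr, the lamin B receptor, which has the same reductase activity as Tm7sf2, was at 0.01 ± 0.12 and 0.12 ± 0.12 (adjusted p = 0.978 and 0.494).

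Msmo1, the C4 methyl oxidase, measured 131, 183 and 107 CPM in WT medium and 103, 133 and 59.0 CPM in WT LPS for pools 16, 17 and 18. Its levels in Scnn1b-Tg pools 17, 18 and 19 were 118, 90.7 and 87.8 CPM in medium and 75.1, 54.5 and 69.5 CPM in LPS. The WT groups overlapped and the Scnn1b-Tg groups did not. Fold changes were -0.55 ± 0.17 (edgeR adjusted p = 0.0337) and -0.57 ± 0.17 (adjusted p = 0.0246) on the log2 scale, and these calls were fragile: each was lost on leaving out any of 4 of the 6 libraries compared, with adjusted p of 0.0815 to 0.164 in WT (the medium libraries of WT 17 and WT 18 and the LPS libraries of WT 16 and WT 18) and of 0.0653 to 0.116 in Scnn1b-Tg (the medium libraries of Tg 18 and Tg 19 and the LPS libraries of Tg 17 and Tg 18).

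Other enzymes of this stretch fell by similar amounts. Nsdhl, which removes the C4 carboxyl group, fell by 0.54 ± 0.11 on the log2 scale in each genotype (edgeR adjusted p = 0.00381 in WT and 0.00298 in Scnn1b-Tg), without overlap of the treatments. Cyp51, the lanosterol demethylase, fell by 0.50 ± 0.14 in WT and by 0.58 ± 0.14 in Scnn1b-Tg (adjusted p = 0.0164 and 0.00629), the WT call being lost without either library of WT 18 (0.102 and 0.0929). Ebp, the sterol isomerase, fell by 0.36 ± 0.09 and 0.40 ± 0.09 (adjusted p = 0.0105 and 0.00454), and its WT call too was lost without either library of WT 18 (0.0627 and 0.0666). Sc5d, the C5 desaturase, fell in WT by 0.47 ± 0.15 (adjusted p = 0.0354), a call lost without any of 4 libraries (WT 16 and WT 18 medium, WT 17 and WT 18 LPS, adjusted p = 0.0918 to 0.174). In Scnn1b-Tg Sc5d was at -0.39 ± 0.15 (adjusted p = 0.0647, and 0.0158 with the pool as a block). Hsd17b7, the C3 ketoreductase, was at -0.11 ± 0.14 and 0.03 ± 0.14 (adjusted p = 0.596 and 0.903). Dhcr7, the last enzyme of one branch, was at -0.72 ± 0.28 in WT and -0.42 ± 0.29 in Scnn1b-Tg (adjusted p = 0.0785 and 0.282), and it spread widely within groups, from 57.2 to 132 CPM in WT medium alone.

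**Figure D3:**
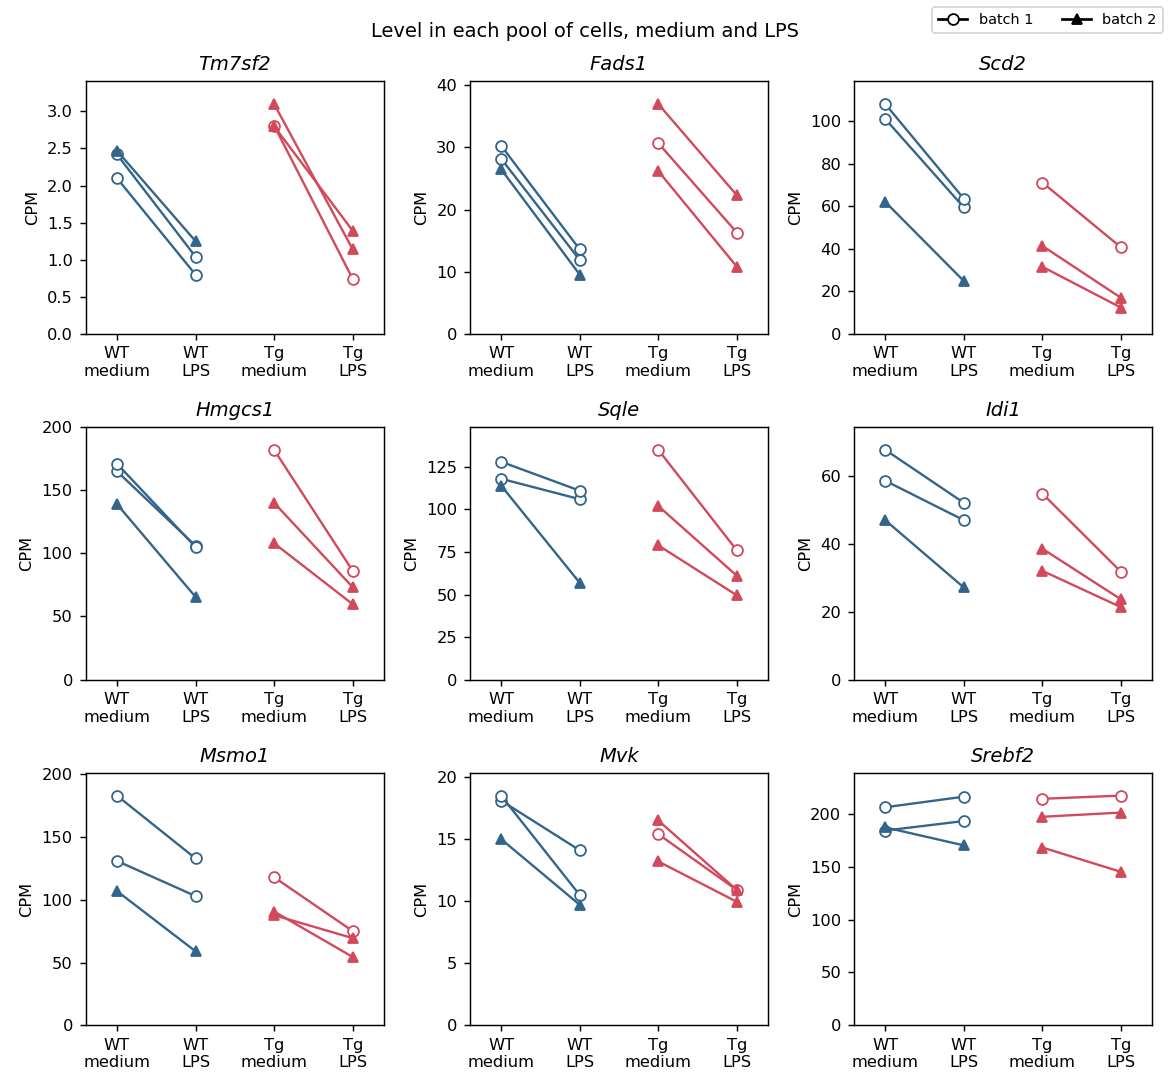
CPM (y axis, from 0) of the 8 called genes with the largest mean change and of Srebf2, with a line from the medium to the LPS library of each pool (x axis, WT in blue, Scnn1b-Tg in red; circles batch 1, triangles batch 2). Each line of the 8 called genes goes down, and the Srebf2 lines stay between 145 and 217 CPM and go down only in WT 18 and Tg 18.

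The genes that control the pathway did not move with the enzymes. Srebf2, which encodes the SREBP of sterol genes, measured 184, 206 and 187 CPM in WT medium and 193, 216 and 170 CPM in WT LPS (pools 16, 17 and 18). In Scnn1b-Tg (pools 17, 18 and 19) it was at 214, 168 and 197 CPM in medium and at 217, 145 and 201 CPM in LPS. The treatments overlapped, and the log2 fold change was 0.00 in WT (95% confidence interval -0.26 to 0.27) and -0.04 in Scnn1b-Tg (-0.31 to 0.22).

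Srebf1, which encodes the SREBP forms of fatty acid and sterol genes, measured 62.3, 75.6 and 60.2 CPM in WT medium and 70.5, 79.8 and 77.0 CPM in WT LPS. In Scnn1b-Tg it measured 69.2, 62.1 and 62.5 CPM in medium and 74.6, 65.2 and 66.9 CPM in LPS. Each pool was slightly higher with LPS, with a log2 change of 0.20 ± 0.09 for WT (edgeR adjusted p = 0.123, and 0.0490 with the pool as a block) and 0.09 ± 0.09 in Scnn1b-Tg (adjusted p = 0.469). Insig1, which retains SREBPs in the endoplasmic reticulum and is itself a classic SREBP target, measured 99.1, 90.7 and 85.9 CPM in WT medium and 117, 110 and 72.6 CPM in WT LPS. Its Scnn1b-Tg levels were 105, 71.7 and 82.3 CPM in medium and 112, 70.5 and 96.8 CPM in LPS. Pools WT 18 and Tg 18 went down slightly and the other 4 went up, and Insig1 was not called (log2 fold change 0.09, 95% confidence interval -0.20 to 0.38, in WT and 0.11, -0.18 to 0.40, in Scnn1b-Tg). RNA levels of these genes do not measure the cleavage of the SREBP proteins.

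Stard4, a carrier of cholesterol between membranes and a known SREBP target, was the one gene of the control and transport group that fell, by 0.41 ± 0.12 in WT and 0.39 ± 0.12 in Scnn1b-Tg on the log2 scale (edgeR adjusted p = 0.0206 and 0.0217). It was lower in 6 of 6 pools. Each call was lost on leaving out any of 4 libraries, with adjusted p of 0.0596 to 0.143 in WT (medium of WT 16 and WT 18, LPS of WT 17 and WT 18) and of 0.0684 to 0.0911 in Scnn1b-Tg (medium and LPS of Tg 17 and Tg 19).

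Acetyl-CoA supply showed no called change. On the log2 scale the change of Acly was 0.09 ± 0.13 in WT and 0.03 ± 0.13 in Scnn1b-Tg, and Acat2, whose thiolase precedes Hmgcs1, at -0.19 ± 0.09 and -0.09 ± 0.09 (edgeR adjusted p of 0.141 to 0.887 over these 4 values). Acss2, which makes acetyl-CoA from acetate, was at 0.24 ± 0.30 in WT and 0.59 ± 0.30 in Scnn1b-Tg (adjusted p = 0.599 and 0.151), and the latter passed with the pool as a block (adjusted p = 0.00717). Its exons overlap Gss on the other strand, which went from 53.5 ± 4.27 CPM in medium to 152 ± 33.3 CPM in LPS in Scnn1b-Tg (n = 3 each), and the part of the overlap in the Acss2 values was not tested.

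In the fatty acid group Fads1 and Scd2 fell in both genotypes and the other 4 genes were not called. Fads1, the delta-5 desaturase of polyunsaturated fatty acids, measured 30.3, 28.2 and 26.5 CPM in WT medium and 13.6, 11.9 and 9.54 CPM in WT LPS (pools 16, 17 and 18). In Scnn1b-Tg it was at 30.7, 26.2 and 37.0 CPM in medium and 16.3, 10.8 and 22.3 CPM in LPS (pools 17, 18 and 19). The treatments did not overlap in either genotype, and LPS cells held 41.2% of the medium level in WT (log2 fold change -1.28 ± 0.23, edgeR adjusted p = 0.00154) and 52.6% in Scnn1b-Tg (-0.93 ± 0.23, adjusted p = 0.00784).

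Scd2, a stearoyl-CoA desaturase that makes monounsaturated fatty acids, measured 101, 108 and 62.0 CPM in WT medium and 59.4, 63.5 and 24.8 CPM in WT LPS. In Scnn1b-Tg it measured 71.1, 31.5 and 41.3 CPM in medium and 40.6, 12.3 and 16.9 CPM in LPS. Every pool was lower with LPS, yet the treatments overlapped because batch 2 pools were much lower than batch 1 pools. Between LPS and medium the log2 change was -0.96 ± 0.17 in WT (edgeR adjusted p = 0.00123) and -1.13 ± 0.17 in Scnn1b-Tg (adjusted p = 0.000330). Within batch 1 the difference of log2(CPM + 0.5) was -0.76 in WT and -0.80 in Scnn1b-Tg, and within batch 2 it was -1.31 and -1.29. Without the batch term the changes were -0.88 ± 0.47 and -1.04 ± 0.47, nearly as large but with wider errors, and neither was called (adjusted p = 0.207 and 0.121).

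Fasn, the fatty acid synthase, was at -0.06 ± 0.19 in WT and -0.32 ± 0.19 in Scnn1b-Tg on the log2 scale (edgeR adjusted p = 0.860 and 0.218), the latter passing with the pool as a block (adjusted p = 0.00991). Acaca, the acetyl-CoA carboxylase that commits carbon to fatty acids, was at 0.09 ± 0.19 and -0.34 ± 0.19 (adjusted p = 0.761 and 0.187). Elovl6 and Fads2 were lower with LPS in 6 of 6 pools without overlap of the treatments, but lay under 2 CPM in every library. Elovl6 was at -0.89 ± 0.31 in WT (adjusted p = 0.0512) and -0.65 ± 0.38 in Scnn1b-Tg (adjusted p = 0.215), and Fads2 at -1.31 ± 0.61 and -1.83 ± 0.75 (adjusted p = 0.134 and 0.0786). With the pool as a random block Elovl6 passed in WT (limma adjusted p = 0.0156) and Fads2 in Scnn1b-Tg (0.0377).

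The size of the LPS change did not differ detectably between genotypes for any member. In the test of the difference of the LPS responses 0 of 32 members were called by edgeR, where 0% of all genes tested were called, and 0 of 32 had an unadjusted p under 0.05. DESeq2 also called 0 members, where it called 0.146% of all genes tested lower and 0.415% higher. The largest estimate among genes above 2 CPM was that of Acaca, with a difference (Scnn1b-Tg minus WT) of -0.43 on the log2 scale and a 95% confidence interval of -1.01 to 0.16. For Hmgcs1 the difference was -0.15 (-0.53 to 0.22), for Tm7sf2 -0.24 (-0.88 to 0.41), for Fads1 0.35 (-0.36 to 1.07) and for Scd2 -0.18 (-0.70 to 0.35). For the genes called in one genotype alone it was 0.24 (-0.11 to 0.59) for Fdps, 0.08 (-0.39 to 0.55) for Sc5d and -0.30 (-0.79 to 0.20) for Sqle.

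Between genotypes at the same treatment, edgeR called no member. In medium 0 of 32 were called, where 0.335% of all genes tested were called, and in LPS 0 of 32, where 0.051% were. At an unadjusted p under 0.05 there were 7 members in medium (21.9%, against 13.4% of all genes tested) and 3 in LPS (9.38%, against 7.12%). All 7 in medium were lower in Scnn1b-Tg: Elovl6, Scd2, Fdps, Acat2, Acss2, Hsd17b7 and Idi1, with log2 fold changes of -1.09 to -0.25 and adjusted p of 0.177 to 0.329. In LPS they were Scd2 at -0.76 ± 0.17 and Idi1 at -0.49 ± 0.12 (adjusted p = 0.189 and 0.256), both lower in Scnn1b-Tg, and Fads1 at 0.54 ± 0.24, higher in Scnn1b-Tg (adjusted p = 0.697). The median log2 fold change over members was -0.09 in medium and -0.10 in LPS, against 0.01 and 0.00 over all genes tested. DESeq2 called Scd2 in medium (log2 fold change -0.58 ± 0.19, adjusted p = 0.0453) and, in LPS, Scd2 (-0.77 ± 0.19, adjusted p = 0.00870) and Idi1 (-0.49 ± 0.14, adjusted p = 0.0320). Of all genes tested DESeq2 called 1.72% lower and 2.14% higher in Scnn1b-Tg in medium, and 0.299% lower and 0.765% higher in LPS.

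**Figure D4:**
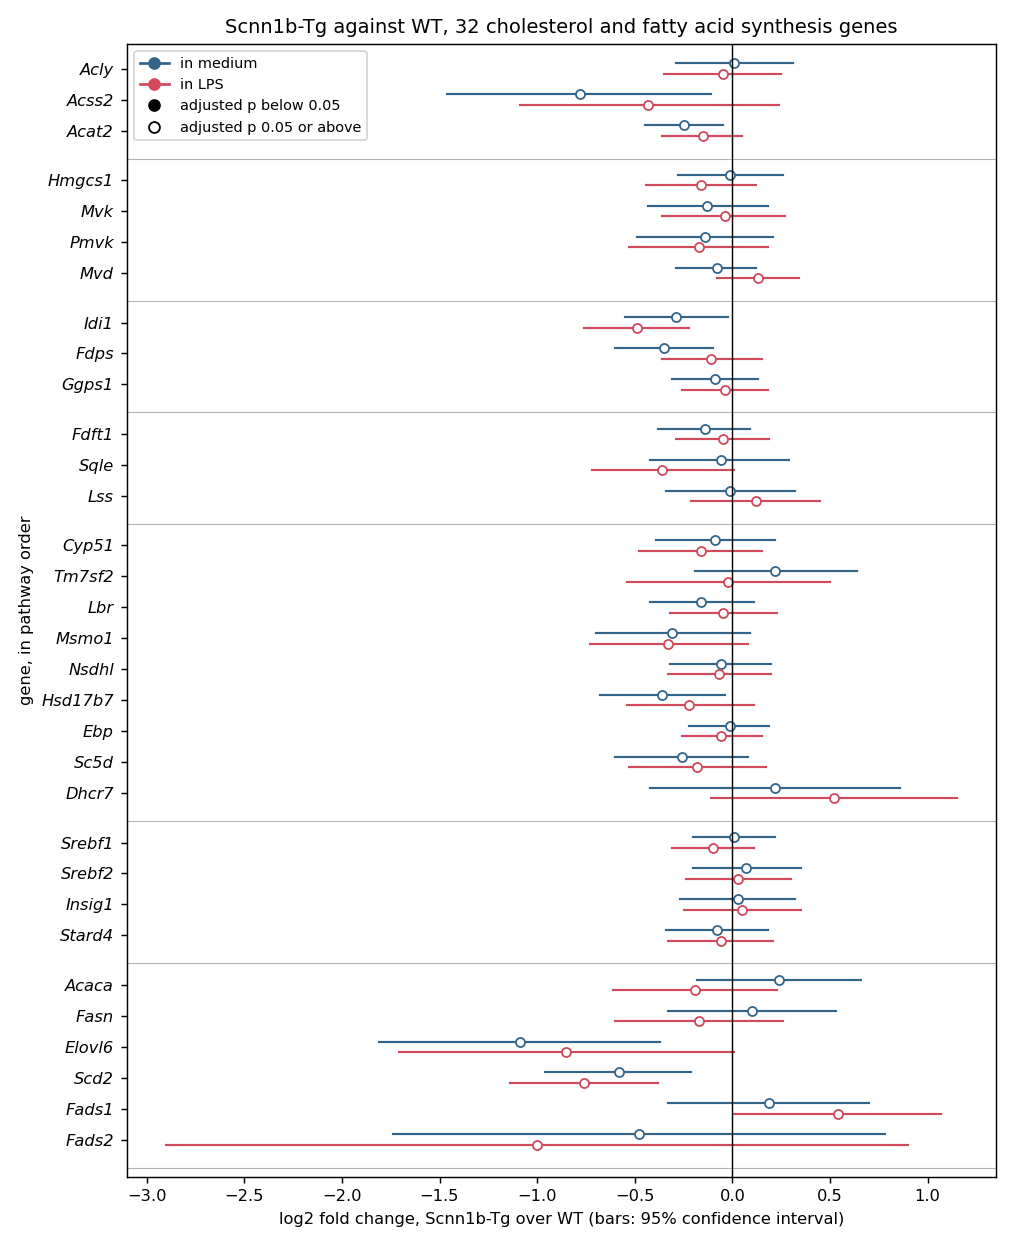
Log2 fold change of Scnn1b-Tg over WT (x axis) for the 32 genes in pathway order (y axis), from the edgeR fit, in medium (blue) and in LPS (red), with bars of the 95% confidence interval. All points are open because none had an adjusted p under 0.05, and most lie slightly left of 0, 23 of 32 in medium and 26 of 32 in LPS.

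Groups of 3 libraries that do not overlap were also counted. In medium 6 members were lower in all Scnn1b-Tg libraries than in all WT libraries (Acss2, Fdps, Hsd17b7, Sc5d, Elovl6 and Fads2), where 9.38% of all genes tested were, and 1 member, Tm7sf2, was higher, where 9.02% were. In LPS 0 members separated, where 3.39% of all genes tested were lower and 5.72% higher in Scnn1b-Tg without overlap. Scd2 overlapped in both treatments, since Tg 17 of batch 1 at 71.1 CPM exceeded WT 18 of batch 2 at 62.0 CPM in medium. Within batch 1 its difference of log2(CPM + 0.5), Scnn1b-Tg minus WT, was -0.55 in medium and -0.59 in LPS, and within batch 2 -0.77 and -0.76, with 1 or 2 pools a genotype in each batch. Idi1 likewise was lower in Scnn1b-Tg within both batches, at -0.20 and -0.41 in medium and -0.63 and -0.27 in LPS. The airway epithelial marker genes moved with genotype, at a summed 56.1 to 89.0 CPM in WT against 22.3 to 48.8 CPM in Scnn1b-Tg, mostly Scgb1a1. The summed neutrophil markers were higher in Scnn1b-Tg, at 25.6 to 37.7 CPM against 17.1 to 20.9 CPM in medium and at 16.9 to 22.2 CPM against 12.3 to 15.6 CPM in LPS, with S100a9 and Ngp at the floor in all groups. The summed AM markers were higher in Scnn1b-Tg in medium, at 16664 to 20325 CPM against 14973 to 15328 CPM, and overlapped in LPS. The part of these markers in the genotype values was not tested.

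Levels of many members differed between batches. In the same fit 19 of the 32 members were lower in batch 2 than in batch 1 and 0 were higher. Of all genes tested 8.68% were lower and 4.92% higher. Of these 19, 10 were also called with LPS and 9 were not, among them Acly, Fasn and Acaca. Scd2 was the most affected, with batch 2 at 46.0% of batch 1 (log2 difference -1.12 ± 0.13, edgeR adjusted p = 0.00288), followed by Acaca at 61.5% (-0.70 ± 0.14, adjusted p = 0.0116). Hmgcs1 was at 72.3% and Srebf2, not called, at 85.8%. This comparison was added after the data were seen, and it rests on 3 pools a batch. With the pool as a random block 10 members were lower in batch 2, where 3.96% of all genes tested were. Leaving out 1 library changed the count most for the LPS library of Tg 17 (6 lower and 1 higher), the LPS library of WT 18 (8 lower) and the medium library of Tg 17 (9 lower). In these fits, in the same order, 1.66%, 2.15% and 2.34% of all genes tested were lower and 1.09%, 0.843% and 1.47% higher. Batch 1 held 2 WT pools and 1 Scnn1b-Tg pool and batch 2 the reverse, so a genotype difference without a batch term would carry part of the batch difference.

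A further 40 genes of sterol and fatty acid handling outside the 32 were read from the same fits, of which 37 passed the filter. With LPS 8 of them rose and 10 fell in WT, where 15.5% of all genes tested rose and 16.2% fell. In Scnn1b-Tg 8 rose and 7 fell, where 19.3% of all genes tested rose and 18.7% fell. Median log2 fold changes were -0.11 in WT and -0.06 in Scnn1b-Tg. None was called between genotypes, where 0.335% of all genes tested were in medium and 0.051% in LPS. None was called in the difference of the LPS responses, where 0% of all genes tested were. These genes moved in both directions, as all genes tested did.

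Ch25h and Abca1 had the largest called rises among these genes. Ch25h, whose product 25-hydroxycholesterol is known to block SREBP processing, measured 107, 99.2 and 162 CPM in WT medium and 312, 272 and 439 CPM in WT LPS, and 101, 173 and 170 CPM in Scnn1b-Tg medium and 337, 730 and 632 CPM in Scnn1b-Tg LPS. The groups did not overlap, and the level rose 2.79-fold in WT (log2 fold change 1.48 ± 0.10, edgeR adjusted p = 1.38e-06) and 3.76-fold in Scnn1b-Tg (1.91 ± 0.10, adjusted p = 1.59e-07). Abca1, which exports cholesterol to lipid-poor apolipoprotein, rose 4.08-fold in WT (2.03 ± 0.27, adjusted p = 0.000182) and 3.87-fold in Scnn1b-Tg (1.95 ± 0.27, adjusted p = 0.000175). Abcg1, which exports cholesterol to mature lipoprotein particles and is, like Abca1, a target of the liver X receptors, fell instead to 47.8% in WT (-1.07 ± 0.12, adjusted p = 6.31e-05) and 34.2% in Scnn1b-Tg (-1.55 ± 0.13, adjusted p = 2.87e-06). Soat1, which esterifies cholesterol for storage, fell in both genotypes. Cyp27a1, the sterol 27-hydroxylase, measured 1.11, 0.856 and 2.91 CPM in WT medium and was at the floor in WT LPS. Against the level that 3 reads a library are assumed to give, it was at least 11.2-fold lower there. In Scnn1b-Tg it went from 2.41, 5.40 and 6.86 CPM in medium to 0.176, 0.285 and 0.323 CPM in LPS, with an adjusted p of 2.04e-06.

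Other genes of fatty acid synthesis moved apart. Scd1, the sister of Scd2, fell by 0.93 ± 0.19 in WT and by 1.01 ± 0.20 in Scnn1b-Tg on the log2 scale (edgeR adjusted p = 0.00322 and 0.00205), and Elovl5 and Tecr fell as well. Me1, the malic enzyme that supplies NADPH, rose by 0.86 ± 0.15 in WT and 1.42 ± 0.16 in Scnn1b-Tg (adjusted p = 0.00131 and 3.03e-05). Hsd17b12, a reductase of fatty acid elongation, rose by 1.08 ± 0.29 and 1.40 ± 0.29 (adjusted p = 0.0141 and 0.00273), and its WT call was lost without the LPS library of WT 16 (adjusted p = 0.0589) or of WT 18 (0.0519). The 4 SREBP processing genes (Scap, Insig2, Mbtps1 and Mbtps2) were not called in either genotype, though with the pool as a block Scap was lower in both (adjusted p = 0.0294 in WT and 0.00529 in Scnn1b-Tg) and Mbtps1 in Scnn1b-Tg (0.0428), and of 8 genes that use isoprenoids, Nus1 rose in both genotypes and Coq2 fell in WT. With LPS the summed monocyte markers went from 18.5 to 26.9 CPM in medium down to 6.04 to 8.46 CPM, mostly Ace. The summed AM markers went from 14973 to 20325 CPM in medium to 11262 to 18361 CPM in LPS, a sum carried by Chil3 and Cd68 that hides single markers. In each genotype 8 of the 12 AM markers were lower with LPS without overlap and 2, Marco and Car4, were higher. WT group means went from 115 to 11.1 CPM for Siglecf, from 235 to 25.4 CPM for Fabp4 and from 122 to 28.9 CPM for Pparg, and from 631 to 1255 CPM for Marco. The part of these markers in the LPS values was not tested.

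**Figure D5:**
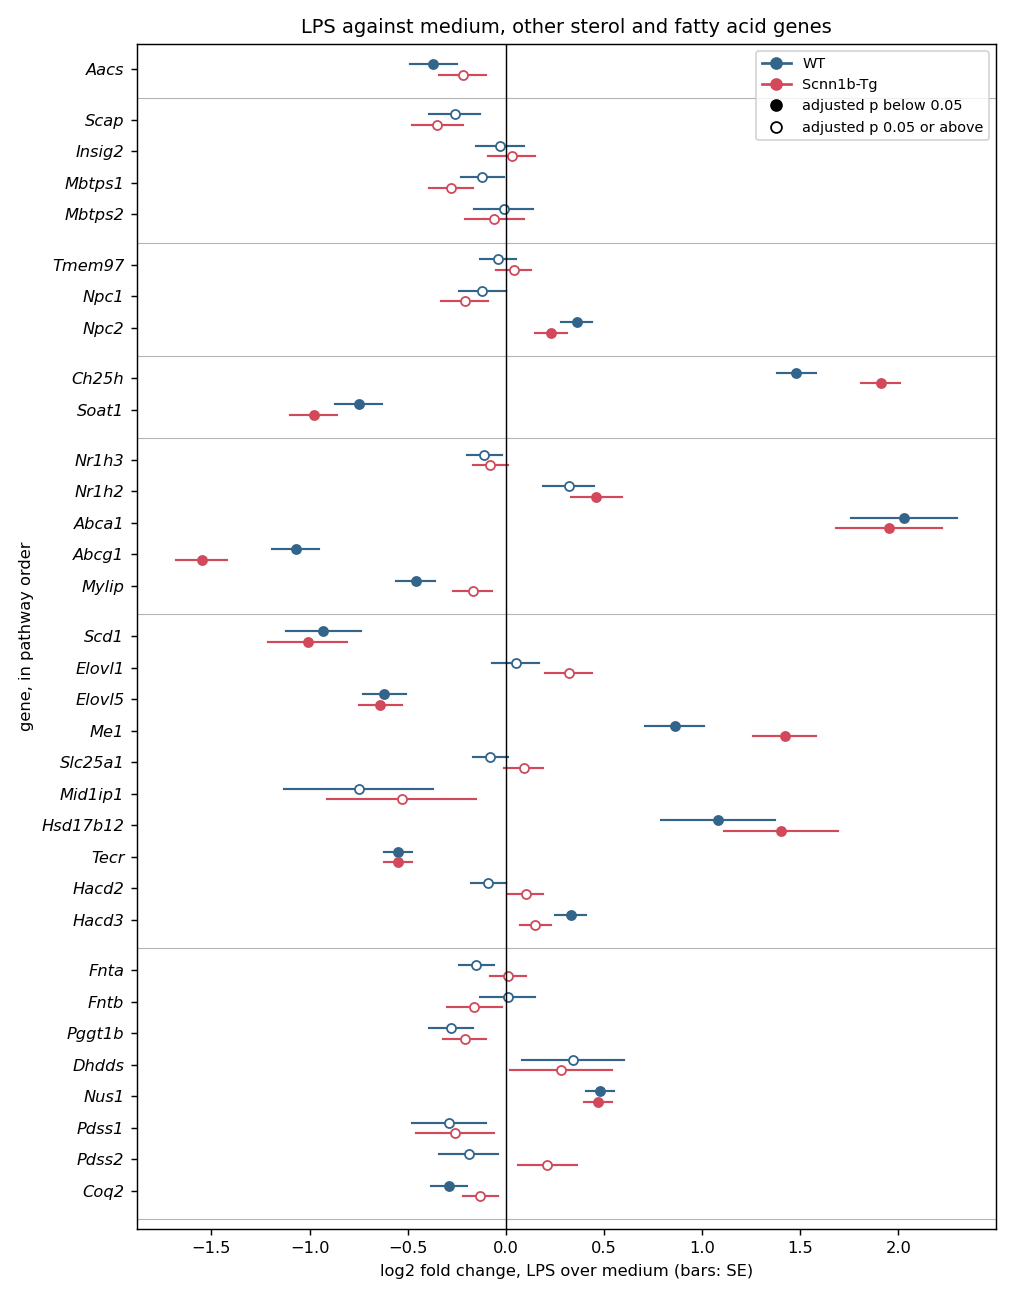
Log2 fold change of LPS over medium (x axis) for 33 other genes of sterol and fatty acid handling (y axis, grouped as sterol synthesis, SREBP processing, sterol uptake, oxysterols and esters, liver X receptors and export, fatty acid synthesis, and use of isoprenoids), in WT (blue) and Scnn1b-Tg (red), with bars of 1 SE and filled points where the edgeR adjusted p was under 0.05. Ch25h and Abca1 lie far to the right and Abcg1 far to the left, and Cyp27a1 is left out because it was at the floor in WT LPS.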

How the data were processed

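RNA libraries were made by the submitters with the SMART-Seq v4 low-input kit and sequenced as read pairs of 125 bp. Per the labels and the study's methods, the authors aligned reads to mm10 with HISAT2 without strand and quantified GENCODE M20 genes with StringTie (nf-core RNAseq 1.2), whose coverage was turned into the estimated counts they deposited. These were whole numbers and were used as deposited. A rate of about 2.5 counts per read at low values was assumed, because 55.3% of low values left 0 or 3 on division by 5. Symbols and exons came from GENCODE M21 on mm10. The 32 genes, their roles, the 40 other pathway genes and the markers were chosen with earlier results of these data known.

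Libraries held 48.2 to 60.9 M counts, so for genes with many counts the counting error was small beside the spread between pools. For the lowest members it need not be small. The highest count of Fads2 in Scnn1b-Tg LPS was 16, and that of Tm7sf2 was 66 in WT LPS and 73 in Scnn1b-Tg LPS. The floor was set at 8 counts in every library of a group (0.131 to 0.166 CPM), which 3 reads give at the assumed rate. It covers counting error only, since amplified reads carry no molecular identifiers. Genes passing filterByExpr of edgeR 4.0.16 (minimum count 10, minimum total 15) were scaled by TMM and fitted with a two-sided quasi-likelihood test in R 4.3.3, with a term per group and one for the batch over 12 libraries. Benjamini-Hochberg adjustment ran over 13729 genes, at 0.05. The study's methods used DESeq2 with the date of library preparation, and DESeq2 1.42.0 was run here as an alternative, beside other scaling, filters, models and each library left out. Differences within batches and pools used log2(CPM + 0.5).

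The medium and LPS libraries of a pool carry the same pool name and number in the labels and come from the same animals. Their deviations from the group means correlated at 0.212 to 0.497 over genes in 6 of 6 pools, so LPS changes were also fitted with the pool as a block (limma 3.58.1 for the random block). Full values were given for the 8 called members with the largest mean change and for Srebf1, Srebf2 and Insig1, and other pathway genes were named with values past 1 on the log2 scale, besides Ch25h. A few of these other genes entered the fits and counts and are not reported by name here. Other called genes were named after their values were seen. The edgeR fit was also run on simulated counts, for LPS against medium in WT and for Scnn1b-Tg against WT in medium. Those counts held no batch or pool differences. The batch term, the difference of the LPS responses and the pool blocks were not tested in this way. Promoter windows and their build came from RefSeq. The accounts of isolation differ between labels and methods, and purity was checked by markers only.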

Additional observations from a re-analysis of the deposited data

How the results depend on the processing

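The 27 called changes of members with LPS kept their direction in 621 of 621 repeats under the alternatives and their side of the threshold in 569, and 52 lost it. These repeats are not independent checks. They include fits close to the main one and fits without a library of the other genotype, which is not part of the comparison. Of the 27, 11 kept both under each alternative (Fads1, Hmgcs1, Nsdhl and Tm7sf2 in both genotypes, Mvk in WT, Sqle and Ebp in Scnn1b-Tg). Without a batch term 6 members were called in WT and 7 in Scnn1b-Tg, where 12.6% and 15.6% of all genes tested fell. With the compared groups alone 9 were called in WT, where 12% of all genes tested fell and 13.7% rose. DESeq2 called 1 member between genotypes in medium and 2 in LPS, where edgeR called 0. Of all genes tested it called 1.72% lower and 2.14% higher in Scnn1b-Tg in medium, and 0.299% lower and 0.765% higher in LPS. Of the other pathway genes, DESeq2 called 1 between genotypes in medium and 2 in LPS, counts divided by 5 gave 1 in medium and the earlier quasi-likelihood method 1 in LPS. Leaving out 1 library gave 7 to 18 called members in WT, 10 to 16 in Scnn1b-Tg, and 0 to 0 for each genotype comparison and for the difference of the LPS responses. In these fits 11.6% to 15.5% of all genes tested fell with LPS in WT and 12.1% to 16.3% rose. In Scnn1b-Tg 14.9% to 19.2% fell and 15.3% to 20.1% rose. With a replicate block, members called with LPS were 18 in WT and 17 in Scnn1b-Tg for the pool as a fixed effect, 19 and 16 for the pool as a random effect, and 19 and 16 for the number in place of the batch. Across these blocks 19.3% to 19.8% of all genes tested fell in WT and 18.9% to 19.1% rose. In Scnn1b-Tg 22.1% to 22.5% fell and 22.3% to 22.6% rose. The block calls between genotypes and for the difference of responses stayed at 0, and the block lost no call with LPS. The earlier quasi-likelihood method, chosen after seeing the data, called 14 and 13 members with LPS, where 15.7% and 17.8% of all genes tested fell. Levels per length of 21 of the 32 members in WT medium moved by more than 1 SD when divided by the longest transcript. Elovl6, Fads2 and Tm7sf2 lay under 4 CPM, where depth limits precision most. The cause of these shifts was not tested.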
